A study of Macaca nemestrina with 58 samples.

Results

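In 8 pig-tailed macaques (Macaca nemestrina) given DMPA, gene expression in vaginal biopsies was compared between the treated times labelled 2D2 and 1D4 within each animal. An animal was taken when its labels gave an array at both times, at any dose, which gave 16 arrays of the 58 in the series. The difference is 2D2 minus 1D4 on the log2 scale, so a positive value means a higher level at 2D2 and 1 unit is a 2-fold difference.

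DMPA is depot medroxyprogesterone acetate, an injected progestin contraceptive. The labelled dose was 2.5 in BB0499, BB0540 and PHQ1, 1.5 in BB405, BB521 and BB981, and 0.5 in BB770 and PPi2, with no unit given. The labels do not spell out what 2D2 and 1D4 stand for, and the series' design text places a DMPA biopsy 2 weeks after the second injection. Untreated baseline arrays of the same 8 animals, 15 in all and taken in different phases of the menstrual cycle, show where each time stood before treatment. There was no untreated animal at these later times, so the time since injection, the number of injections and the repeated biopsy cannot be told apart.

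The vaginal wall carries a layered squamous epithelium over connective tissue with vessels and, deeper, smooth muscle. Estrogen drives the upper layers to thicken and cornify, a programme that uses keratins, envelope proteins and a set of secreted proteases. Progestins given alone lower ovarian estrogen output and thin this epithelium in macaques, and progesterone-type ligands also act through the progesterone and glucocorticoid receptors in the stroma. A pinch biopsy samples these layers in proportions that depend on its depth, so in such bulk samples fewer cells of a type and less RNA per cell cannot be told apart.

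The arrays were designed for the rhesus macaque, and 31624 probe sets, naming 11199 genes, were bright enough to be tested. The keratins of stratified squamous epithelium marked the tissue at both times. KRT13 averaged 13.58 ± 0.28 at 2D2 and 13.64 ± 0.30 at 1D4, and KRT4 averaged 12.59 ± 0.71 at 2D2 and 12.87 ± 0.77 at 1D4 (log2 expression, SD, n = 8 each). The precision of every value below rests on the number of animals.

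No probe set differed between 2D2 and 1D4 at an adjusted p under 0.05 in limma with the animal as a block, in either direction (0% of those tested). The smallest adjusted value was p = 0.291. Without adjustment, 2291 probe sets had p under 0.05 (7.24%) where chance gives 1581, of which 1195 were higher at 2D2 (3.78%) and 1096 lower (3.47%). Among named genes 42.3% had a lower mean at 2D2. At an unadjusted p under 0.05 4.05% of named genes were higher and 3.75% lower. These shares belong beside every list count below. The median difference over all tested probe sets was 0.02 and the median SE was 0.13. For 29892 probe sets (94.5%) the 95% interval of the difference lay within 1 log2 unit of 0 on both sides, which bounds a 2-fold difference.

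The large differences ran mostly one way. A mean at least 2-fold lower at 2D2 was found for 339 probe sets (1.07%) and a mean at least 2-fold higher for 6 (0.0190%). Counted by gene, 133 genes were at least 2-fold lower and 2 at least 2-fold higher, DUSP1 and FOS. Of the 133 genes, 40 were on lists of connective tissue, muscle or vessel genes and 10 on lists of squamous genes. Of all 11199 named genes, 149 were on the former lists and 63 on the latter. The lists were written with earlier results of these data known. The 1D4 mean of 110 of them lay above the baseline mean, and that of the other 23 at or below it. These genes were picked for a 1D4 mean at least 2-fold above that at 2D2. The choice itself favours a 1D4 mean above baseline, so the count is no evidence of a rise at 1D4. In at least 7 of 8 animals 39 of the 133 were lower.

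The count of animals leaned the other way. Probe sets higher at 2D2 in at least 7 of 8 animals numbered 1668 (5.27%) and those lower 974 (3.08%), and 14140 (44.7%) had a mean below 0. Probe sets higher at 2D2 in 8 of 8 animals numbered 240 (0.759%), and those lower in 8 of 8 numbered 99 (0.313%). The levels of both times did not overlap at all for 3 probe sets (0.00949%). One of these reads DHX16, a pre-mRNA splicing helicase, picked out here after its values were seen. Its level was 8.12 to 8.41 at 2D2 and 7.78 to 8.11 at 1D4, a log2 difference of 0.25 ± 0.09 (SE, n = 8; limma adjusted p = 0.659).

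FOS and DUSP1, both immediate early genes, were the 2 genes with the largest mean differences upward. FOS encodes a subunit of the AP-1 transcription factor and is induced within minutes by many stimuli. At 2D2 FOS measured 9.97 in BB0499, 11.16 in BB0540, 12.17 in PHQ1, 10.83 in BB405, 11.38 in BB521, 9.46 in BB981, 11.32 in BB770 and 11.41 in PPi2. At 1D4 it measured 8.47 in BB0499, 8.65 in BB0540, 7.97 in PHQ1, 9.63 in BB405, 11.07 in BB521, 8.99 in BB981, 8.85 in BB770 and 9.30 in PPi2. Every animal was higher at 2D2, most in PHQ1 and least in BB521, whose 1D4 level was already high, and the ranges of the times overlapped. The log2 difference was 1.85 ± 0.38 (SE, n = 8; limma adjusted p = 0.55).

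DUSP1 encodes a phosphatase that switches off MAP kinases and is also a target of the glucocorticoid receptor. Its level at 2D2 ran from 11.06 through a median of 12.20 to 12.95, and at 1D4 from 10.36 through 10.95 to 12.31. All 8 animals were higher at 2D2, by 0.28 in BB521 to 2.13 in PHQ1. This came to a log2 difference of 1.11 ± 0.19 (SE, n = 8; limma adjusted p = 0.393), and a second DUSP1 probe set gave 0.60. JUNB, another AP-1 subunit, was also higher in 8 of 8 animals, by 0.02 to 1.67, with a log2 difference of 0.43 ± 0.17 (limma adjusted p = 0.673) that was 0.25 without PHQ1.

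Levels of FOS and DUSP1 at 1D4 lay below the animals' baseline on average and those at 2D2 above it, without passing in either case. FOS averaged 10.16 at baseline, 9.12 at 1D4 and 10.96 at 2D2, and DUSP1 averaged 11.56, 11.03 and 12.14 at the same times. The adjusted p against baseline was 0.0569 at 1D4 and 0.207 at 2D2 for FOS, and 0.134 at 1D4 and 0.176 at 2D2 for DUSP1 (limma). JUNB did fall at 1D4 against baseline, by 0.75 ± 0.18 (limma adjusted p = 0.0102), and its 2D2 level differed from baseline by -0.32 (limma adjusted p = 0.2). Both differences are measured against the same baseline arrays. JUNB was picked from its list for a small p between 2D2 and 1D4. With JUNB higher at 2D2, that choice favours a low 1D4 level, so the fall of JUNB at 1D4 is no independent result.

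The immediate early list as a whole had a median near 0. Of its 27 measured genes 15 had a higher mean at 2D2, the median difference was 0.10, and 3 were higher at an unadjusted p under 0.05, a share to set beside 4.05% of all named genes. The list mean was higher at 2D2 in 6 of 8 animals, with BB521 at -0.20 and BB770 lower as well. The median of the list was -0.03 without PHQ1. Heat shock proteins and chaperones, 14 genes, had a median of -0.02 and none at an unadjusted p under 0.05.

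**Figure D1:**
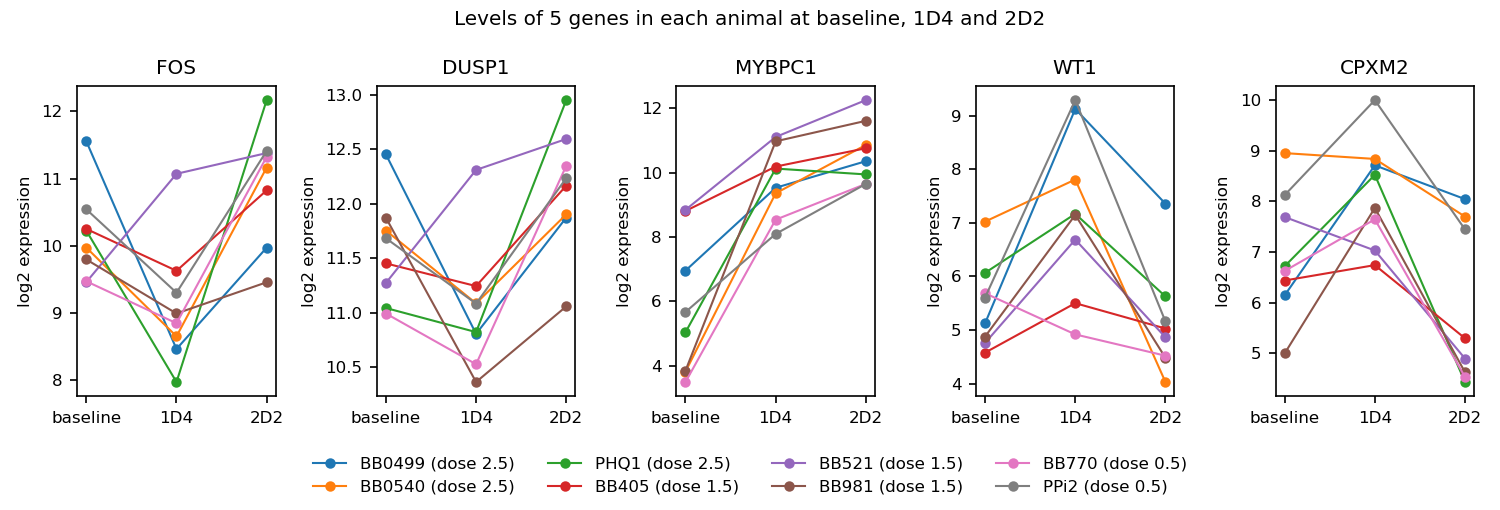
Levels (log2 expression, y axis) of FOS, DUSP1, MYBPC1, WT1 and CPXM2 in each of the 8 animals at baseline, 1D4 and 2D2 (x axis); each line is 1 animal and baseline is the mean of its baseline arrays. FOS and DUSP1 were higher at 2D2 than at 1D4 in all 8 animals, WT1 and CPXM2 lower in all 8, and MYBPC1 higher in 7 of 8.

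Genes of connective tissue, smooth muscle and vessels made up the largest group with lower means at 2D2. Of 149 such genes measured, 132 had a lower mean at 2D2, against 42.3% of all named genes, and 41 were lower at an unadjusted p under 0.05, against 3.75% of all named genes. None passed the adjusted threshold. Their median difference was -0.58, and against baseline the medians were 0.67 at 1D4 and 0.09 at 2D2. At 1D4 135 of the 149 means lay above baseline, and at 2D2 84 did. Over all named genes the median against baseline was 0.01 at 1D4 and 0.04 at 2D2. The share of all named genes with a mean above baseline was not counted, so the 84 at 2D2 are not read as a trait of this group.

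The animals disagreed on this group. The median of the 149 genes was positive in BB405 at 0.65 and in BB0499 at 0.33. It was negative in the other 6 animals, from -0.35 in BB981 to -1.54 in PHQ1. The median SD of the within-animal difference was 1.07 for these genes, against 0.34 over all genes. In PHQ1 126 of 149 genes were lower at 2D2, while in BB405 33 were.

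A stroma score, averaged over the genes of both the fibroblast and the smooth muscle list, gave the same order of animals at its ends. Its genes are part of the 149, so the shared order is built in and is not a second line of evidence. It averaged 8.91 ± 1.15 at 2D2 and 9.75 ± 1.10 at 1D4 (log2, SD, n = 8 each). It was lower at 2D2 in 6 of 8 animals, by up to 2.21 units in PHQ1 (difference -2.21), and higher in BB0499 by 0.48 and in BB405 by 1.36. With the stroma score as a covariate, limma again called 0 probe sets, and 1610 had an unadjusted p under 0.05.

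All 15 measured smooth muscle genes had a lower mean at 2D2, and 2 were lower at an unadjusted p under 0.05. Their median was -1.06, and it was -0.55 without PPi2 and -0.61 without PHQ1. MYH11, the myosin heavy chain of smooth muscle, measured 5.98 to 12.43 with a median of 7.70 at 2D2, and 5.55 to 12.97 with a median of 10.33 at 1D4. Its ranges overlapped almost wholly, and its difference ran from -5.51 in PPi2 to 4.74 in BB405. The mean log2 difference was -1.37 ± 0.95 (SE, n = 8; limma adjusted p = 0.793), and it was -0.77 without PPi2, -0.84 without PHQ1 and -2.24 without BB405. SYNM and SYNPO2, intermediate filament and actin-binding proteins of the contractile apparatus, gave -1.33 ± 0.56 and -1.25 ± 0.61 (limma adjusted p = 0.685 and 0.708). Without PPi2 they gave -0.86 and -0.82.

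**Figure D2:**
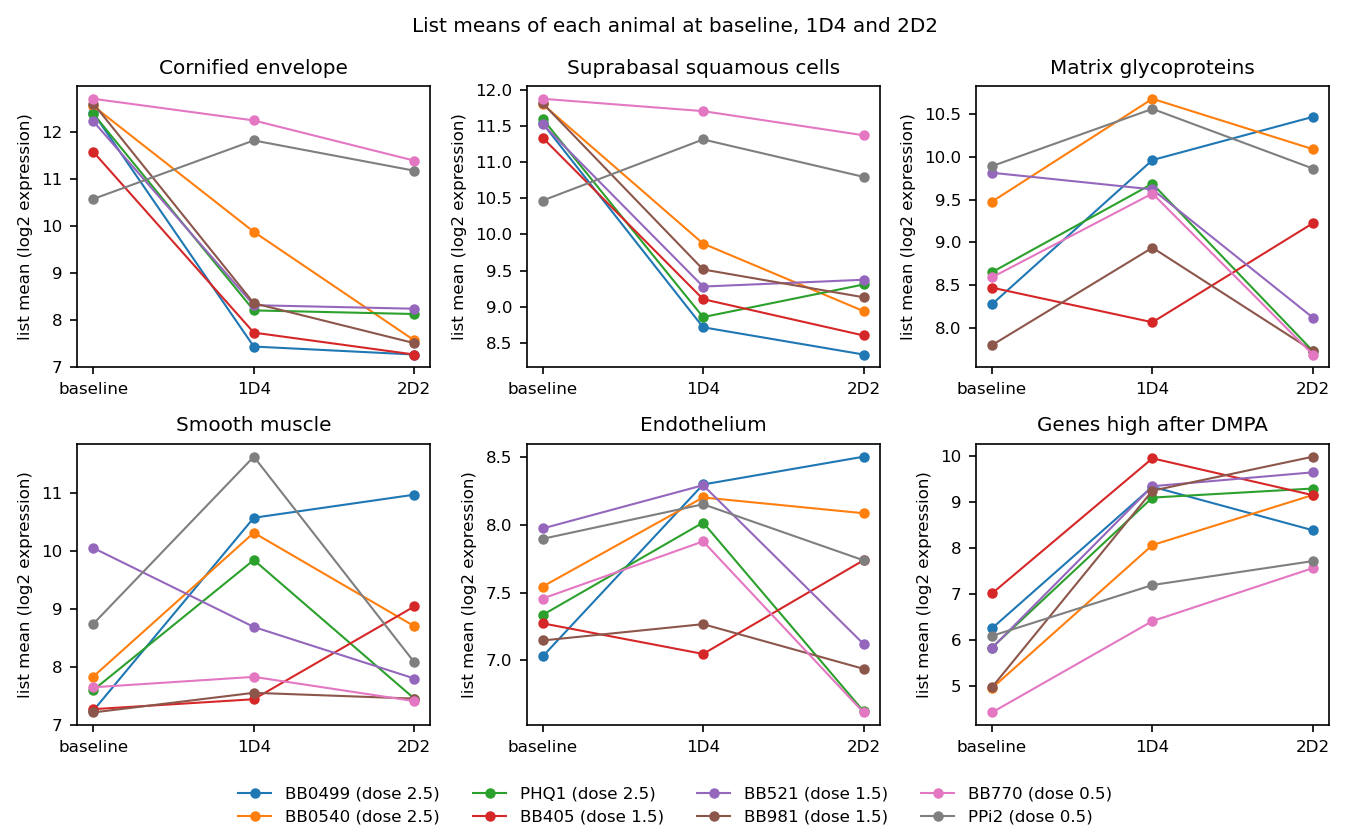
Mean log2 expression of 6 gene lists (y axis) in each animal at baseline, 1D4 and 2D2 (x axis); each line is 1 animal. The cornified envelope mean was lower at 2D2 than at 1D4 in 8 of 8 animals, while the matrix, smooth muscle and endothelium means were lower in 6 of 8 and higher in BB0499 and BB405.

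Collagens and the enzymes that process them followed the same animals. Of 16 fibrillar and network collagens 13 had a lower mean at 2D2 (median -0.91) and 4 were lower at an unadjusted p under 0.05. COL1A1, a chain of type I collagen, measured 9.01 to 13.94 with a median of 11.96 at 2D2 and 9.17 to 14.15 with a median of 13.21 at 1D4. The ranges overlapped, with BB405 higher at 2D2 by 3.48 and BB981 lower (difference -3.97), and the log2 difference was -1.23 ± 0.75 (SE, n = 8; limma adjusted p = 0.765), or -1.90 without BB405. COL12A1, a fibril-associated collagen, was more even: lower in 7 of 8 animals, with a log2 difference of -1.01 ± 0.29 (limma adjusted p = 0.659).

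All 16 crosslinking and collagen processing enzymes had a lower mean at 2D2, with a median of -0.67 and 6 at an unadjusted p under 0.05. PCOLCE, which enhances the cleavage of procollagen, gave -1.47 ± 0.38. FKBP10, a collagen chaperone, gave -1.01 ± 0.31, and LOX, which oxidises lysines for crosslinks, gave -1.09 ± 0.42, with -1.40 and -1.78 on its other probe sets. Each of these was lower in 6 of 8 animals (limma adjusted p = 0.659, 0.659 and 0.666). TGM2, tissue transglutaminase, gave -0.78 ± 0.26 and was lower in 7 of 8 animals. For SERPINH1, the collagen chaperone HSP47, probe sets disagreed: the brightest gave -0.72, another -0.78 and another 0.25.

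Of 30 matrix glycoproteins and proteoglycans 26 had a lower mean at 2D2 (median -0.72), and 10 were lower at an unadjusted p under 0.05. VCAN encodes versican, a large proteoglycan of loose matrix. VCAN measured 4.35 to 7.88 with a median of 7.05 at 2D2, and 6.62 to 9.50 with a median of 8.15 at 1D4. BB405 was higher at 2D2 by 0.77 and the other 7 animals lower, and the ranges overlapped. In limma the mean difference was -1.40 ± 0.34 (SE, n = 8; limma adjusted p = 0.659). Its 4 other probe sets gave -0.75 to -1.58, and without BB405 1 of them passed, at -1.62 (limma adjusted p = 0.00238). That fit is 1 of 8 that each leave out 1 animal. It drops the only animal that was higher on the brightest probe set, so it adds no support. LTBP1, which tethers latent TGF-beta to the matrix, gave -1.16 ± 0.35, and THBS1, thrombospondin, gave -0.60 ± 0.19, each lower in 7 of 8 animals. The other THBS1 probe sets gave -0.32 to -0.76.

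Among 18 fibroblast genes 17 had a lower mean at 2D2 (median -0.69) and 7 were lower at an unadjusted p under 0.05. IGF1, a growth factor made by stromal cells, measured 6.85 to 11.85 with a median of 8.98 at 2D2 and 8.20 to 12.77 with a median of 11.42 at 1D4. It was lower by over 2 units in PHQ1, BB521, BB981 and BB770, and higher in BB0499 and BB405, and the ranges overlapped. The paired fit gave a log2 difference of -1.83 ± 0.63 (SE, n = 8; limma adjusted p = 0.659), and 3 other probe sets gave -1.10 to -1.72. CXCL12, a stromal chemokine, gave -0.88 ± 0.28 and was lower in 6 of 8 animals, but its other probe sets gave -0.40 and -0.33.

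Endothelial genes were lower in 29 of 30 by mean, with a median of -0.47 and 8 at an unadjusted p under 0.05. The median was -0.30 without PHQ1 and -0.71 without BB405. The general endothelial markers PECAM1 and VWF gave -0.59 ± 0.41 and -0.62 ± 0.38. Both means leaned on a few animals: the median over the animals was -0.10 for PECAM1 and -0.35 for VWF. PECAM1 was -0.28 without PHQ1 and -0.36 without BB770, and VWF was -0.39 without PHQ1 and -0.40 without BB770. EMCN, a sialomucin of capillaries and veins, gave -1.08 ± 0.33, with -0.70 and -0.95 on its other probe sets. FLT1, a receptor of VEGF, gave -1.18 ± 0.39, and KDR, the main signalling receptor of VEGF, gave -0.96 ± 0.36. The adjusted p of EMCN, FLT1 and KDR ran from 0.659 to 0.663, and that of PECAM1 was 0.792 (limma).

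APLNR, the receptor of apelin, differed by less but more evenly. It measured 6.33 to 7.06 with a median of 6.66 at 2D2, and 6.81 to 7.44 with a median of 7.10 at 1D4. It was lower in every animal but PHQ1, where the difference was 0.04, and the ranges overlapped. On average 2D2 minus 1D4 was -0.41 ± 0.09 (SE, n = 8; limma adjusted p = 0.659), and a second probe set gave -0.57. Pericyte and vessel wall genes, 8 in all, had a median of -0.25, with KCNJ8, a potassium channel of pericytes, at -1.15 ± 0.48.

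Matrix proteases and their inhibitors were mixed, with 11 of 18 lower by mean and a median of -0.26. That median was -0.04 without BB521, -0.13 without BB770 and -0.41 without BB0499. MMP9, gelatinase B, gave 0.72 ± 0.30 and was higher in 5 of 8 animals. CTSK, the collagen-degrading cathepsin K, gave -1.09 ± 0.48 and was lower in 5 of 8. TIMP1 gave -0.83 on its brightest probe set and 0.13 on each of the others, so its direction was not settled. Among 20 genes of TGF-beta and BMP signalling the median was -0.02. The ligand TGFB3 gave -0.91 ± 0.22 and was lower in 7 of 8 animals (limma adjusted p = 0.659), while its second probe set gave -0.26.

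Averaged over the animals, the squamous genes lay below baseline at 1D4, and most had a still lower mean at 2D2. Over 63 measured genes of the cornified envelope, squamous proteases and suprabasal layers, 59 had a lower mean at 2D2, against 42.3% of all named genes. At an unadjusted p under 0.05 17 were lower, against 3.75% of all named genes. None passed the adjusted threshold. The median difference was -0.43, and against baseline the medians were -2.03 at 1D4 and -2.56 at 2D2. All 63 means over the 8 animals lay below baseline at both times. PPi2 went the other way, and BB770 lay nearer its baseline than the animals of the higher doses. The cornified envelope mean of PPi2 was 10.58 at baseline, 11.82 at 1D4 and 11.18 at 2D2, and its protease and suprabasal means also lay above its baseline at both times. In BB770 the cornified envelope mean was 12.71 at baseline, 12.25 at 1D4 and 11.39 at 2D2.

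Against baseline 3435 probe sets fell at 1D4 (10.9% of those tested) and 3404 fell at 2D2 (10.8%). Among named genes the shares that fell were 13.4% at 1D4 and 12.9% at 2D2. Of 20 cornified envelope genes 19 fell at 1D4 and 20 at 2D2 (limma). Of 22 protease genes 16 fell at 1D4 and 18 at 2D2, and of 21 suprabasal genes 18 fell at 1D4 and 20 at 2D2. The counts at the different times share the baseline arrays. RNA quality also differed from baseline in most animals, as given below, and its part in these changes was not tested.

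On the cornified envelope list all 20 measured genes had a lower mean at 2D2, with a median of -0.64, and 7 were lower at an unadjusted p under 0.05. Its list mean measured 7.26 to 11.39 with a median of 7.85 at 2D2, and 7.43 to 12.25 with a median of 8.34 at 1D4. The list mean was lower at 2D2 in 8 of 8 animals, from -0.08 in BB521 to -2.31 in BB0540, with a mean of -0.68 ± 0.73 (SD, n = 8). The ranges overlapped, and BB770 and PPi2, the animals of dose 0.5, were the highest at both times. Without BB0540 the median over the 20 genes was -0.43.

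SPRR3, a small proline-rich envelope protein, measured 7.85 to 14.41 with a median of 8.78 at 2D2, and 8.30 to 14.42 with a median of 10.57 at 1D4. It was lower in 7 of 8 animals, most in BB0540 at -4.81, and the ranges overlapped. On average 2D2 minus 1D4 was -1.31 ± 0.50 (SE, n = 8; limma adjusted p = 0.666), and -0.81 without BB0540. IVL, involucrin, gave -0.70 ± 0.42, with PHQ1 higher at 2D2 by 1.97, and it was -0.41 without BB0540 and -1.08 without PHQ1. CRNN, cornulin, gave -1.23 ± 0.48 but was lower in only 5 of 8 animals, and CNFN, cornifelin, gave -0.66 ± 0.25 and was lower in 6. Without BB0540 CRNN was at -0.78 and CNFN at -0.42.

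KRTDAP, a secreted protein of differentiating keratinocytes, was lower in 8 of 8 animals. It measured 5.40 in BB0499, 8.94 in BB0540, 8.81 in PHQ1, 5.23 in BB405, 11.08 in BB521, 6.36 in BB981, 13.90 in BB770 and 13.57 in PPi2 at 2D2. At 1D4 it measured 6.52 in BB0499, 12.96 in BB0540, 11.32 in PHQ1, 5.57 in BB405, 11.77 in BB521, 8.22 in BB981, 14.07 in BB770 and 13.87 in PPi2. The spread between animals at 1 time was larger than the difference within most animals, and the ranges overlapped. The log2 difference was -1.38 ± 0.40 (SE, n = 8; limma adjusted p = 0.659).

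Squamous proteases and their inhibitors were lower by mean in 19 of 22 genes (median -0.33), with 7 at an unadjusted p under 0.05 and 6 lower in at least 7 of 8 animals, against 3.15% of all named genes. KLK12, a kallikrein, measured 4.38 to 12.43 with a median of 6.63 at 2D2 and 4.82 to 13.08 with a median of 8.29 at 1D4. It was lower in all 8 animals, and the ranges overlapped. This came to a log2 difference of -1.10 ± 0.27 (SE, n = 8; limma adjusted p = 0.659), and its 2 other probe sets gave -1.0 and -1.04.

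Other proteases differed by similar sizes. PRSS27, a membrane-anchored serine protease, gave -1.02 ± 0.24, KLK6 gave -1.05 ± 0.38 and TMPRSS11F gave -1.12 ± 0.30, each lower in 7 of 8 animals. TMPRSS11F was dim, with a mean of 4.47 at 2D2, 5.59 at 1D4 and 7.39 at baseline. An average of 5.53 over the series was needed for testing. TMPRSS11B, a transmembrane serine protease of squamous epithelium, gave -1.63 ± 0.71, and that mean rested largely on BB0540, at -6.96. It was -0.87 without BB0540. Its median over the animals was -0.51, and it was 2.44 to 12.10 at 2D2 and 2.42 to 12.85 at 1D4, ranges that overlapped almost wholly (limma adjusted p = 0.688).

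Suprabasal genes had a median of -0.25, with 20 of 21 lower by mean. The desmosomal cadherin DSG1, which stands on the cornified envelope list instead, gave -0.89 ± 0.34, or -0.57 without BB0540, and was lower in 7 of 8 animals. RHCG, an ammonium transporter, gave -0.84 ± 0.27, while its other probe set gave -0.16. KRT1, an early keratin of cornifying cells, gave -0.94 ± 0.44, or -0.58 without BB770. ANXA1, annexin A1, could not be read: its 3 probe sets gave -0.25, -0.40 and 0.87. In the junction list, where the median over 28 genes was 0.01, the connexin GJB6 gave -0.88 ± 0.29 and was lower in 7 of 8 animals. Basal keratinocyte genes, 8 in all, had a median of 0.02.

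The squamous and connective groups did not have the same sign in every animal. PHQ1 and BB521 had the lowest connective medians, at -1.54 and -1.24, and the highest squamous medians, at 0.35 and 0.05. BB0540 had the lowest squamous median, at -1.24, with a connective median of -0.48. BB405 and BB0499 had positive connective medians and squamous medians of -0.38 and -0.22. In BB981, BB770 and PPi2 both were negative.

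**Figure D3:**
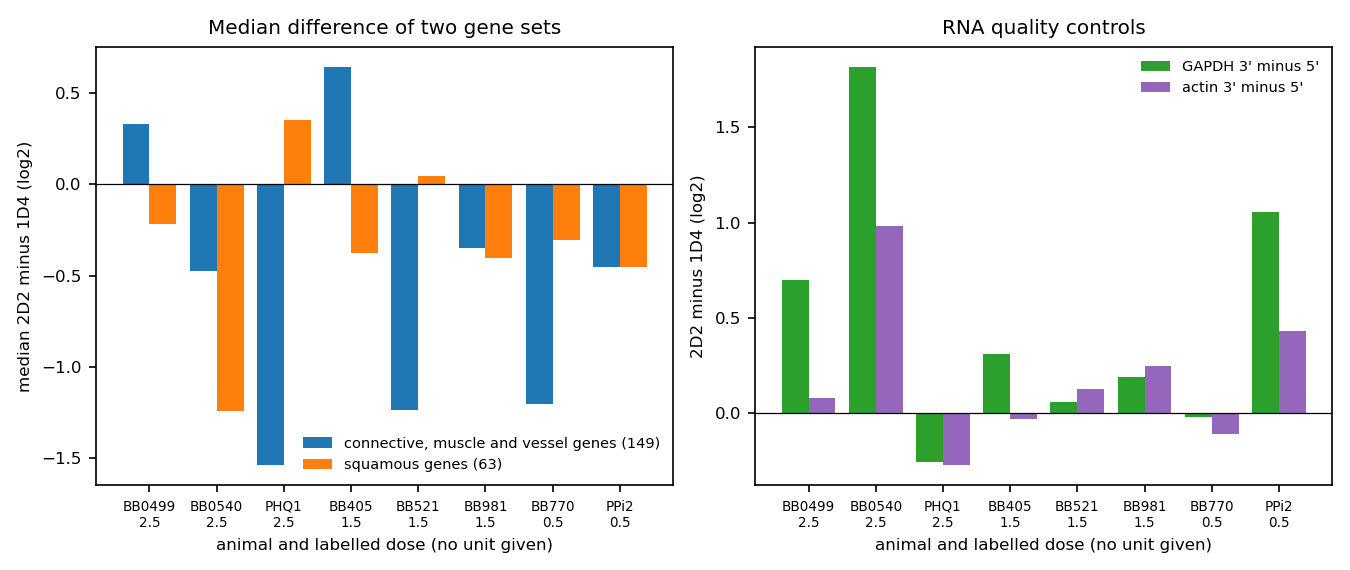
Left, the median difference between 2D2 and 1D4 (log2, y axis) over 149 connective, muscle and vessel genes and over 63 squamous genes in each animal (x axis, with the labelled dose). Right, the difference between 2D2 and 1D4 in the 3' minus 5' signal of the GAPDH and actin controls in the same animals, which was highest in BB0540 and lowest in PHQ1.

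RNA quality differed between the times in some animals. The gap between the 3' and 5' control probe sets of GAPDH, which grows as RNA breaks down, averaged 2.43 ± 0.73 at 2D2 and 1.95 ± 0.33 at 1D4 (log2, SD, n = 8 each). It was higher at 2D2 in 6 of 8 animals, by 1.82 in BB0540 and 1.06 in PPi2, and lower in PHQ1 at -0.26 and in BB770 at -0.02. The mean difference of 0.48, or 0.29 without BB0540, gave p = 0.0781 in an exact two-sided sign-flip permutation test, 0.156 after adjustment over 2 controls, where 0.00781 is the smallest p that 8 animals allow. The actin control differed by 0.18 (exact permutation p = 0.242). The GAPDH gap also lay above the animal's own baseline at 2D2 in all but BB770, and at 1D4 in all but BB770 and PPi2. In BB0499 it was 1.35 at baseline, 2.01 at 1D4 and 2.71 at 2D2, and in BB770 1.42, 1.41 and 1.39. The part of RNA quality in the changes from baseline was not tested. BB0540, with the largest GAPDH difference, also had the lowest squamous median difference, and the part of RNA quality in it was not tested. With the GAPDH difference as a covariate limma again called 0 probe sets, and 2329 had an unadjusted p under 0.05.

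With each gene read by its brightest probe set, CPXM2 and KCNK2 had the smallest p among the named genes, and both were lower in all 8 animals. Their unadjusted p was 6.48e-05 and 8.02e-05 (limma). Probe sets that did not stand for their gene had smaller values, with 3.69e-05 for VCAN, the smallest of all tested, and 4.37e-05 for IL1RN. Another WT1 probe set, at 6.88e-05, lay below KCNK2. CPXM2 belongs to the metallocarboxypeptidase family and stood on the matrix glycoprotein list. At 2D2 it measured 8.04 in BB0499, 7.70 in BB0540, 4.43 in PHQ1, 5.29 in BB405, 4.89 in BB521, 4.62 in BB981, 4.53 in BB770 and 7.44 in PPi2. At 1D4 it measured 8.71 in BB0499, 8.84 in BB0540, 8.52 in PHQ1, 6.74 in BB405, 7.03 in BB521, 7.87 in BB981, 7.64 in BB770 and 10 in PPi2. At 2D2 5 animals lay under every 1D4 level and 3 within their range. In limma the mean difference was -2.30 ± 0.35 (SE, n = 8; limma adjusted p = 0.291), and a second probe set gave -1.17. Unlike most stromal genes, CPXM2 was lower in BB405 and BB0499 too.

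KCNK2, a potassium channel that responds to stretch, measured 3.20 to 7.58 with a median of 5.33 at 2D2 and 6.0 to 8.39 with a median of 6.56 at 1D4. PPi2 had the highest level at both times, and the ranges overlapped. The paired fit gave a log2 difference of -1.5 ± 0.24 (SE, n = 8; limma adjusted p = 0.291). Against baseline KCNK2 differed by 0.43 at 1D4 (limma adjusted p = 0.347) and fell at 2D2, by 1.06 (limma adjusted p = 0.0248). KCNK2 was picked for its small p between 2D2 and 1D4, from the same 2D2 arrays. That choice favours a low 2D2 level, so the fall from baseline at 2D2 is no independent result.

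WT1, a zinc finger transcription factor of mesenchymal and uterine stromal cells, had a higher mean at 1D4 than at baseline or at 2D2. WT1 averaged 7.20 at 1D4, 5.47 at baseline and 5.13 at 2D2. The means at baseline and 2D2 lay under 5.53, the average over the series needed for testing. It measured 4.03 to 7.36 with a median of 4.95 at 2D2, and 4.92 to 9.29 with a median of 7.16 at 1D4. All 8 animals were lower at 2D2, from -0.40 in BB770 to -4.13 in PPi2, and the ranges overlapped. On average 2D2 minus 1D4 was -2.07 ± 0.41 (SE, n = 8; limma adjusted p = 0.55), and a second probe set gave -2.49. Against baseline it was 1.72 ± 0.42 at 1D4 (limma adjusted p = 0.00962) and -0.35 at 2D2 (limma adjusted p = 0.569). WT1 was picked for its small p between 2D2 and 1D4, from the same 1D4 arrays. That choice favours a high 1D4 level, so the difference from baseline at 1D4 is no independent result.

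PEG3, an imprinted zinc finger gene, was picked in the same way and also had its highest mean at 1D4. It measured 5.57 to 8.51 with a median of 7.32 at 2D2 and 7.73 to 9.78 with a median of 8.70 at 1D4. All 8 animals were lower at 2D2, by least in BB0499, and the ranges overlapped. On average 2D2 minus 1D4 was -1.26 ± 0.22 (SE, n = 8; limma adjusted p = 0.393), and a second probe set gave -1.26. PEG3 rose at 1D4 against baseline, by 1.30 ± 0.44 (limma adjusted p = 0.0382), and differed from it by 0.04 at 2D2. The caution given for WT1 holds for that rise too.

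Further genes with a small p were PRDM1, HEPHL1, CHST1 and CATSPERG, lower in 8 of 8 animals each. PRDM1, a transcriptional repressor of plasma cells and of terminal keratinocyte differentiation, gave -0.69 ± 0.12, with -0.40 and -0.63 on its other probe sets. HEPHL1, a copper ferroxidase, gave -1.10 ± 0.21, CHST1, a sulfotransferase of keratan sulfate, gave -0.79 ± 0.15, and CATSPERG, a subunit of a calcium channel known from sperm, gave -0.73 ± 0.13 (limma adjusted p from 0.421 to 0.509). A second CATSPERG probe set gave -0.35. Against baseline PRDM1 fell by 1.28 at 1D4 and fell by 1.97 at 2D2, and HEPHL1 fell by 2.56 at 1D4 and fell by 3.65 at 2D2 (limma adjusted p = 0.00486, 0.000349, 0.00728 and 0.000888). CATSPERG rose at 1D4, by 0.81 (limma adjusted p = 0.00495). These genes too were picked for their p between the times, so their changes from baseline are not independent of that choice.

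PPP2R2C and PPP2R2B, regulatory subunits of protein phosphatase 2A, differed in opposite directions. PPP2R2C gave -1.69 ± 0.36 and was lower in 8 of 8 animals, while PPP2R2B gave 0.75 ± 0.22 and was higher in 7 of 8 (limma adjusted p = 0.63 and 0.659). The other PPP2R2C probe set gave -0.77. ODAD3, an outer dynein arm docking protein of cilia, gave -1.11 ± 0.22, and CLMP, an adhesion molecule, gave -1.45 ± 0.44, each lower in 7 of 8. MTFR1L gave -0.60 on its brightest probe set and 0.05 on the other. Of genes that the array names only by a locus number, LOC714943 gave -2.89 ± 1.03 and LOC709134 gave -1.71 ± 0.50, each lower in 7 of 8 animals.

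**Figure D4:**
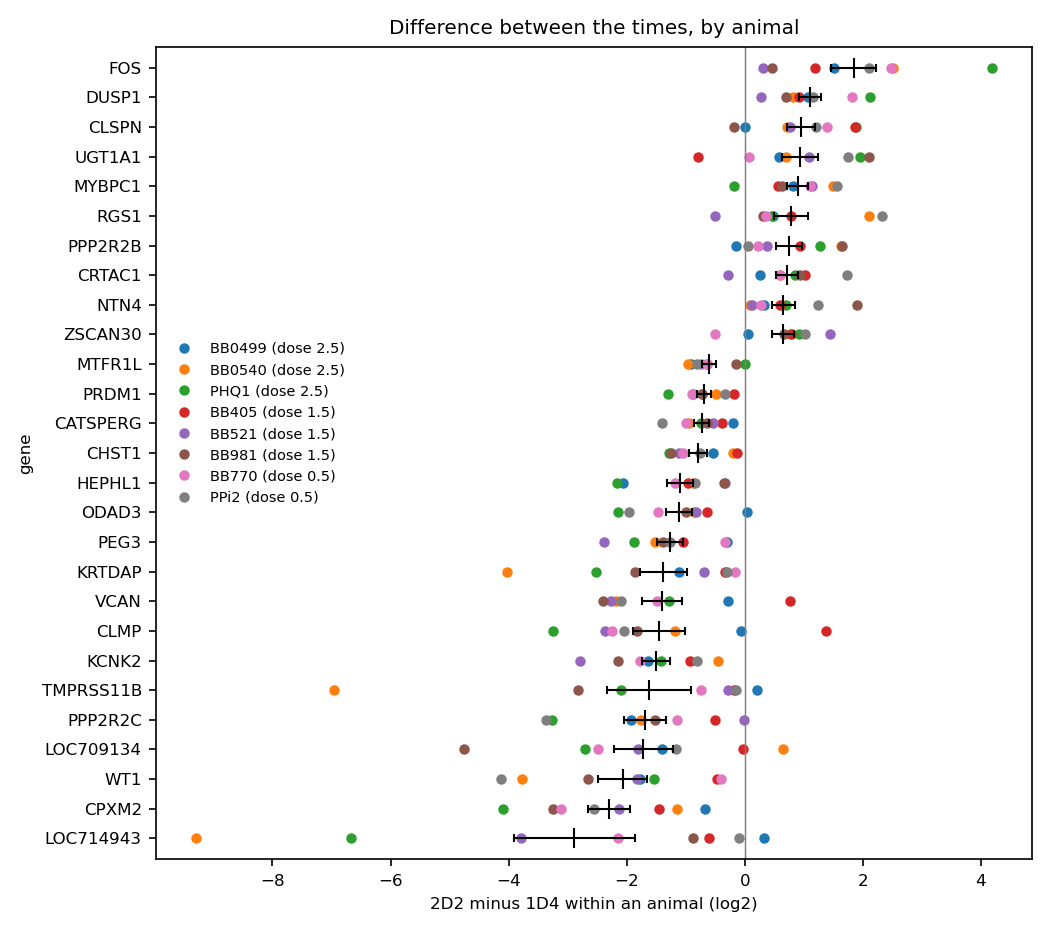
Difference between 2D2 and 1D4 (log2, x axis) for the genes with the smallest p and the largest even differences (y axis); coloured points are the 8 animals, and the black mark and bar are the mean and its SE from limma. The points of FOS, DUSP1 and NTN4 all lie above 0 and those of CPXM2, WT1 and KCNK2 all below it.

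MYBPC1, a myosin-binding protein C, stands on the list of genes high after DMPA and had a higher mean at 2D2 than at 1D4. It measured 9.65 to 12.26 with a median of 10.56 at 2D2, and 8.10 to 11.11 with a median of 9.83 at 1D4. It was higher in 7 of 8 animals, with PHQ1 at -0.18, and the ranges overlapped. The log2 difference was 0.90 ± 0.18 (SE, n = 8; limma adjusted p = 0.55), and a second probe set gave 0.95. Against baseline it rose by 4.00 ± 0.69 at 1D4 and by 4.89 at 2D2 (limma adjusted p = 0.00392 and 0.00055).

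The 9 genes of that list had been chosen as high after DMPA in earlier work on these same arrays, so their level against baseline supports nothing. Of the 9, 7 had a higher mean at 2D2 than at 1D4, with a median of 0.40, and 4 were higher at an unadjusted p under 0.05. SLC14A1, a urea transporter, gave 0.86 ± 0.23 and SLC15A2, a peptide transporter, gave 0.53 ± 0.24, each higher in 6 of 8 animals, while a second SLC15A2 probe set gave 0.32. VNN2, a pantetheinase, gave 0.32 ± 0.11 and was higher in 7 of 8. At least 7 animals were higher for 3 of the 9 genes, against 5.78% of all named genes. MSMB, a small secreted protein first known from semen, had a lower mean at 2D2, at -1.19 ± 0.71, with animals from -4.46 in BB0499 to 2.86 in BB0540 and -0.73 without BB0499. The list mean was lower at 2D2 in BB0499 and BB405, which had the higher connective values at 2D2.

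Other genes with a higher mean at 2D2 had diverse roles. NTN4, a netrin of basement membranes, was higher in 8 of 8 animals, by 0.08 to 1.90, with a log2 difference of 0.66 ± 0.20 (limma adjusted p = 0.659). CLSPN, claspin, a replication checkpoint adaptor, gave 0.95 ± 0.24, UGT1A1, which glucuronidates bilirubin and steroids, gave 0.93 ± 0.30, and CRTAC1, a secreted cartilage protein, gave 0.71 ± 0.19. RGS1, a regulator of G protein signalling in lymphocytes, gave 0.79 ± 0.29, and ZSCAN30, a zinc finger gene, gave 0.65 ± 0.19. Each of these was higher in 7 of 8 animals, and none passed.

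The progesterone receptor gene was lower at 2D2 by mean. PGR measured 7.00 to 9.73 with a median of 8.41 at 2D2, and 8.53 to 9.88 with a median of 8.95 at 1D4. It was lower in 6 of 8 animals, with BB0499 and BB770 slightly higher, and the ranges overlapped. This came to a log2 difference of -0.78 ± 0.25 (SE, n = 8; limma adjusted p = 0.659). Against baseline PGR differed by -0.19 at 1D4 (limma adjusted p = 0.684) and fell at 2D2, by 0.98 (limma adjusted p = 0.0306).

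The estrogen receptor gene ESR1 gave -0.19 ± 0.21, and 0.02 without BB0540, so no direction was settled. Of 20 estrogen-responsive genes 12 had a lower mean at 2D2, against 42.3% of all named genes, with a median of -0.12. At an unadjusted p under 0.05 4 were lower, against 3.75% of all named genes. The mean of that list was lower at 2D2 in 7 of 8 animals, by -0.27 ± 0.16 on average (SD, n = 8). IGF1, CXCL12 and IGFBP4, an IGF-binding protein at -0.82 ± 0.31, stand on both this list and the fibroblast list. Of 24 progestin- and glucocorticoid-responsive genes 14 had a higher mean and 10 a lower one, with a median of 0.07. That is near the share of all named genes, of which 42.3% had a lower mean. FKBP5, a cochaperone induced through both receptors, gave 0.17 ± 0.17 with 4 animals higher and 4 lower. RGS2, another regulator of G protein signalling, gave 0.51 ± 0.14 and was higher in 7 of 8 animals, and its second probe set gave 0.19.

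Antimicrobial genes of the epithelium were lower at 2D2 by mean in 13 of 18, against 42.3% of all named genes, with a median of -0.26. At an unadjusted p under 0.05 4 were lower, against 3.75% of all named genes. The list mean was lower in 7 of 8 animals. SLPI, a secreted protease inhibitor with antimicrobial activity, measured 9.33 to 13.71 with a median of 10.87 at 2D2, and 9.68 to 13.84 with a median of 12.86 at 1D4. It was lower in 8 of 8 animals, most in BB0499 at -3.79, and the ranges overlapped. In limma the mean difference was -1.18 ± 0.37 (SE, n = 8; limma adjusted p = 0.659). SLPI differed from baseline by -0.37 at 1D4 (limma adjusted p = 0.457) and fell at 2D2, by 1.56 (limma adjusted p = 0.00446). SLPI was picked from its list for a small p between 2D2 and 1D4. That choice favours a low 2D2 level, so its fall at 2D2 is no independent result. PI3, elafin, gave -1.0 ± 0.37, S100A12, a calgranulin, gave -0.64 ± 0.19, and S100A8 gave -0.28 ± 0.12, each lower in 7 of 8 animals.

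IL1RN and IL36A, of the interleukin 1 family, had lower means at 2D2 without passing. IL1RN encodes the receptor antagonist of interleukin 1. IL1RN measured 6.36 to 11.25 with a median of 7.98 at 2D2, and 7.30 to 12.17 with a median of 8.80 at 1D4. PHQ1 was higher at 2D2 by 0.50, and the other 7 animals were lower by similar amounts, from -0.92 to -1.44. The paired fit gave a log2 difference of -0.93 ± 0.19 (SE, n = 8; limma adjusted p = 0.55). Its other probe sets gave -0.92 and -0.99. Without PHQ1 the brightest passed, at -1.14 ± 0.10 (limma adjusted p = 0.0221, n = 7). That fit is 1 of 8 that each leave out 1 animal, and it drops the only animal of the opposite sign, so it adds no support. IL36A, an agonist of the same family, gave -1.32 ± 0.33 and was lower in 7 of 8 animals.

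Over 38 cytokines, chemokines and receptors the median was -0.10, with 3 higher and 6 lower at an unadjusted p under 0.05. Of all named genes 4.05% were higher and 3.75% lower at that threshold. IL15, a lymphocyte growth factor, gave 0.33 ± 0.11 and was higher in 7 of 8, with 0.19 and 0.26 on its other probe sets. Interferon response genes and restriction factors, 33 in all, had a median of -0.06, with 5 lower and 0 higher at that threshold, to set beside the same shares. HERC6, an interferon-induced ubiquitin ligase family member, was lower in 8 of 8 animals at -0.36 ± 0.10. ISG15, a ubiquitin-like modifier, gave -0.62 ± 0.21, and MX2, a restriction factor of HIV in humans, gave -0.58 ± 0.20 and -0.27 on its second probe set.

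Immune cell lists had medians near 0. T cell genes, 17 in all, had a median of 0.11, natural killer and cytotoxic genes 0.12, B and plasma cell genes -0.04, macrophage and dendritic genes -0.00 and Langerhans cell genes -0.03. No T cell gene was lower at an unadjusted p under 0.05 and 1 was higher, BCL11B, a transcription factor of T cells and keratinocytes, at 0.36 ± 0.14. The T cell list mean differed from -0.84 in BB0499 to 0.72 in BB0540, with 4 animals in each direction. All 17 T cell intervals and 26 of 27 macrophage and dendritic intervals lay within 1 log2 unit of 0, against 94.0% of all named genes.

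Receptors used by HIV and mucosal homing genes, 16 in all, had a median of 0.04 and none at an unadjusted p under 0.05. CD4 measured 5.41 to 6.71 with a median of 6.40 at 2D2, and 5.33 to 6.84 with a median of 5.75 at 1D4. It was higher in 6 of 8 animals and lowest in BB770 by difference, at -1.12, and the ranges overlapped. On average 2D2 minus 1D4 was 0.39 ± 0.23 (SE, n = 8; limma adjusted p = 0.765), or 0.60 without BB770. CXCR4, a coreceptor, gave 0.08 ± 0.28 with 4 animals in each direction. CD69, a marker of activated and tissue-resident lymphocytes, gave 0.53 ± 0.24, or 0.34 without PPi2, and ITGB1, integrin beta 1, gave -0.28 ± 0.13, or -0.17 without BB0540. CD14, a monocyte and macrophage marker, gave -0.02 ± 0.17.

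Single immune genes varied widely between animals. JCHAIN, the joining chain of secreted antibodies, differed from -5.30 in PHQ1 to 2.16 in BB0540, with a mean of -1.34 ± 0.80 that was -0.77 without PHQ1. CPA3, a mast cell carboxypeptidase, differed from -4.35 in BB981 to 3.24 in BB405, and its mean of -0.76 was -1.33 without BB405, -0.24 without BB981 and -0.49 without BB770. CD244, a receptor of natural killer cells, gave 0.40 ± 0.17 and was higher in 6 of 8 animals. ENPP3, an ectoenzyme of mast cells and basophils, gave -0.42 ± 0.17 and was lower in 7 of 8.

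Of 24 cell division genes 19 fell at 1D4 and 15 at 2D2 against baseline (limma), where 13.4% and 12.9% of all named genes fell. The list mean lay below baseline at both times in the 6 animals of dose 2.5 and 1.5. In BB770 it was 7.99 at baseline, 8.31 at 1D4 and 8.80 at 2D2, and in PPi2 7.16, 7.62 and 6.69 at the same times. The median difference between 2D2 and 1D4 was 0.09, and no gene passed. MKI67, a marker of cycling cells, gave 0.06 ± 0.31, and PCNA, the replication clamp, gave 0.27 ± 0.12. The list mean differed from -0.93 in PPi2 to 0.84 in BB405.

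Of 22 columnar and secretory genes 11 rose and 1 fell at 1D4 against baseline, and 12 rose and 2 fell at 2D2 (limma), where 10.4% and 14.6% of all named genes rose. The medians against baseline were 0.90 at 1D4 and 0.99 at 2D2, and the median difference between 2D2 and 1D4 was 0.01. Ribosomal protein genes had a median of 0.01, mitochondrial respiratory chain genes 0.06 and glycogen genes 0.07. RPS19, 1 of 16 ribosomal genes, gave 0.56 ± 0.17. Glycolysis and hypoxia genes had a median of -0.08, with ALDOC, an aldolase, at -0.56 ± 0.16 and -0.25 on its second probe set. PPP1R3D, a glycogen-targeting phosphatase subunit, gave 0.30 ± 0.12. In the WNT list, whose median was -0.02, WNT2B gave -1.17 ± 0.42 and -0.73 on its second probe set, and WNT10A gave 0.49 ± 0.17.

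**Figure D5:**
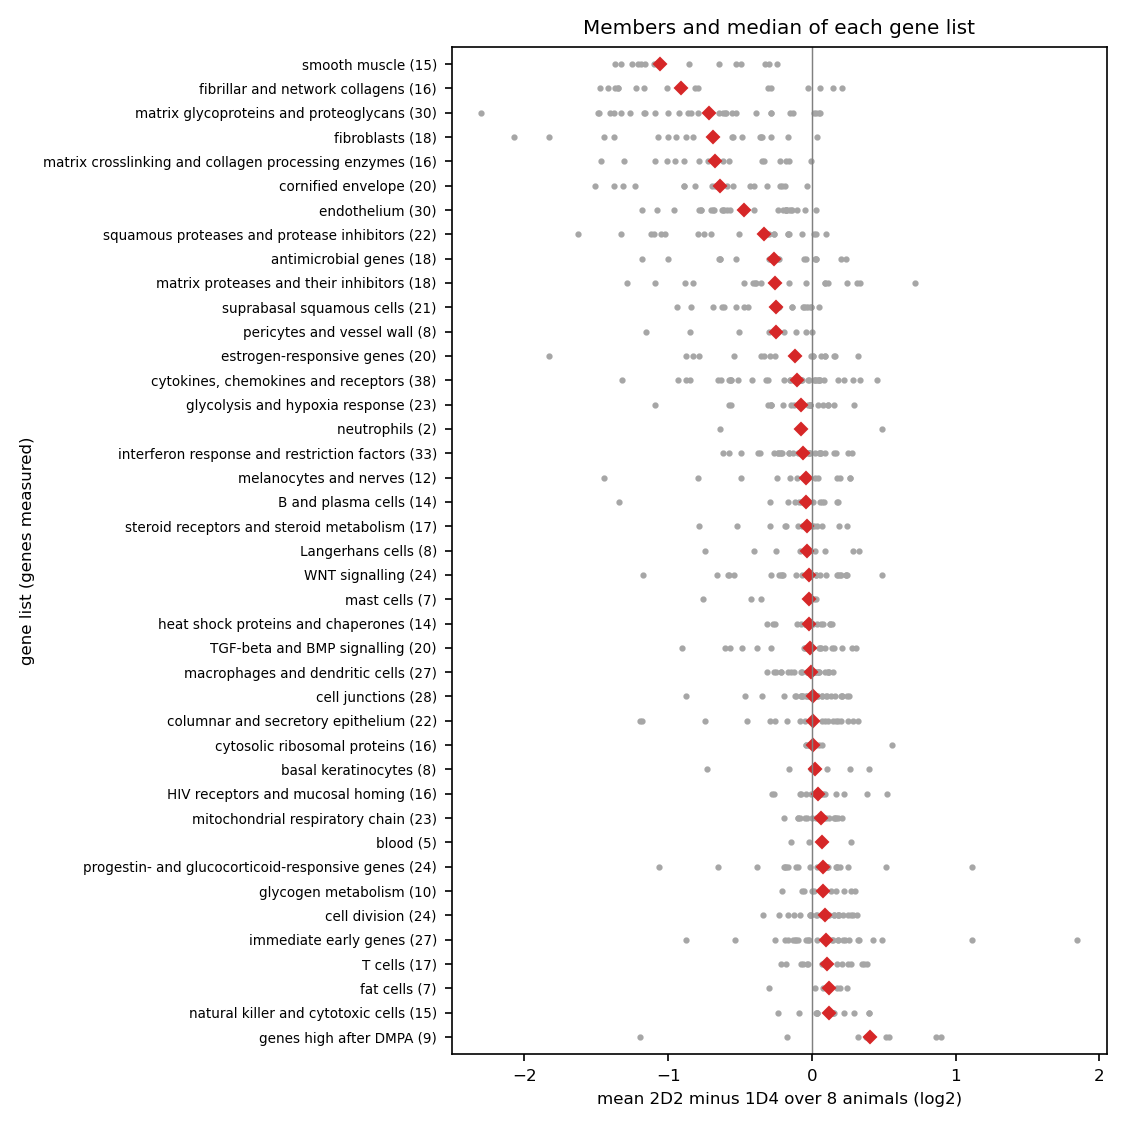
Mean difference between 2D2 and 1D4 over 8 animals (log2, x axis) for each of 41 gene lists (y axis, with the number of genes measured); grey points are genes and red diamonds list medians. The lists with medians under -0.4 are those of smooth muscle, collagens, collagen processing enzymes, matrix glycoproteins, fibroblasts, endothelium and the cornified envelope, and most immune and metabolic lists lie near 0.

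The difference between the times was also set against the labelled dose, with 3 animals at 2.5, 3 at 1.5 and 2 at 0.5. No probe set had a dose slope at an adjusted p under 0.05 in limma (0%), 1690 had p under 0.05 without adjustment (5.34%), and the smallest adjusted value was p = 0.921. Ranked by p, the leading genes were PPARG, a nuclear receptor of fat and immune cells, with a slope of 1.07 ± 0.19 log2 units per unit of labelled dose, CLEC7A, a receptor of fungal glucans, with 0.73 ± 0.13, and LRRC20 with 1.37 ± 0.27 (SE, n = 8).

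By dose, the cornified envelope mean differed by -0.85 at 2.5, -0.46 at 1.5 and -0.75 at 0.5. The animals ran from -2.31 to -0.08 at 2.5, from -0.85 to -0.08 at 1.5 and from -0.86 to -0.64 at 0.5. The smooth muscle mean differed by -1.20 at 2.5, 0.20 at 1.5 and -1.98 at 0.5.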

How the data were processed

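Vaginal biopsies of pig-tailed macaques were measured on rhesus macaque expression arrays, 1 column of log2 values per array, as deposited by the authors, between 1.37 and 14.57. The submitters' processing notes name affy and Partek without versions, and the method of background correction and normalization is not stated there or in the labels. Array medians over the series ran from 6.07 to 6.26, and nothing was normalized again.

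The array has 52865 probe sets. After leaving out 158 controls, a probe set was tested if its average log2 level reached the 40th percentile, 5.53, and 31624 did. The baseline array with a duplicate label and its partner were averaged into 1 sample. Gene symbols came from the platform annotation, in which 24969 probe sets have 1 symbol, 361 several and 27535 none, and symbols were not updated. The brightest kept probe set stood for a gene. Positions and sequences are not used here.

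The main test was limma 3.58.1 in R 4.3.3 with moderated variances and the animal as a fixed block, on the 16 arrays of the 8 animals with both times, adjusted by Benjamini-Hochberg over all kept probe sets. The pairing comes from the animal label. Each difference is thus the mean of 8 within-animal differences, and errors marked SE are from this fit. The dose slope was fitted to the 8 differences. Changes from baseline were fitted with the 15 baseline arrays of the same animals, phases pooled, and values for an animal with 2 such arrays are their mean. Random blocks used statmod 1.5.0. RNA controls were tested by exact sign-flip permutation. The pipeline was tested on simulated data.

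The comparison, the 41 gene lists (1082 genes, 708 measured) and the rule for named genes were chosen with earlier results of these data known, and lists are described by counts and medians without a test. Genes named were the 12 with the smallest p, the 10 largest differences each way with 1 sign in at least 7 of 8 animals, from each list up to 4 genes of smallest p, a fixed set of markers, and for dose the 5 with the smallest p; of these 187 not all are printed. Alternatives were other filters, scalings, samples, blocks and covariates, and leaving out each animal. Centring arrays for the changes from baseline, and the settings for dose slopes of single genes, were added after seeing the data.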

Additional observations from a re-analysis of the deposited data

Results flagged for a closer look

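Among 154 sets of 8 within-animal differences examined (named genes, list means, RNA controls and the stroma score), 7 had 1 animal far from the other 7, or 4.55%, while chance flags about 1 in 20. BB0540 stood apart with the lowest difference between 2D2 and 1D4 in 4 of them. TMPRSS11B was at -6.96 in BB0540 and the next animal at -2.82. SPRR3 was at -4.81 there against -1.97 in the next, ESR1 at -1.61 against -0.24, and the mean of the cornified envelope list at -2.31 against -0.86.

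PHQ1 stood apart with the highest difference in the other 3. JUNB was at 1.67 in PHQ1 and the next animal at 0.51. IL1RN was at 0.50 against -0.92 in the next, and APLNR was at 0.0361 against -0.31. BB0540 also had the highest difference of the GAPDH 3' minus 5' control, at 1.82, and PHQ1 the lowest, at -0.26; their part in these values was not tested.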

How the results depend on the processing

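The count of 0 probe sets at an adjusted p under 0.05 for 2D2 minus 1D4 held under every alternative run on all 8 animals, and the count for the dose slope was 0 under each of its alternatives. At an unadjusted p under 0.05 the count for 2D2 minus 1D4 ran from 741 with no replicate block, the fit that drops the pairing by animal, to 3392 with no filter. Fits on other samples gave 1655 with all 57 samples and 1558 with the 8 animals and their baseline arrays. Leaving out 1 animal gave 0 to 2 probe sets past the threshold: 2 of IL1RN without PHQ1, with IL1RN at -1.14, and 1 of VCAN without BB405.

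For the changes from baseline, leaving out 1 animal gave 2321 to 8035 probe sets at 1D4, against 6604 with all 8, and 4706 to 8911 at 2D2, against 7646. The count at 1D4 was 2426 without BB0499, 2888 without BB0540, 2321 without PHQ1, 4142 without BB405 and 3075 without BB981. At 2D2 it was 4706 without BB0540 and 4707 without BB981. The GAPDH control difference was 0.29 to 0.59 over such fits, with an exact permutation p of 0.0312 without PHQ1.

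Of 110 genes named, 4 changed sign when 1 animal was left out. ESR1 ran from -0.32 to 0.0151, MKI67 from -0.0729 to 0.32, CXCR4 from -0.10 to 0.22 and CD14 from -0.15 to 0.0939. Centring each array on its median moved the median of all probe sets by 0.02. With 8 animals a median SE of 0.13 limits what could pass, and the stromal and squamous genes had larger errors, with median SEs of 0.32 and 0.24. The cause of these dependences was not tested.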

Other observations

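BB108, given a labelled dose of 0.5, had an array at 2D2 but none at 1D4 among the samples used here, so it entered no comparison above. Its values at 2D2 can be set against its own 2 baseline arrays, with no replicate. All 20 cornified envelope genes were lower at 2D2, and their mean was 7.49 at 2D2 and 10.70 at baseline, a difference of -3.21. The squamous protease mean differed by -2.56, with 20 of 22 genes lower. For BB770 and PPi2, the other animals of that dose, the cornified envelope mean was 11.39 at 2D2 and 12.71 at baseline in BB770, and 11.18 at 2D2 and 10.58 at baseline in PPi2, so PPi2 lay above its own baseline.

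The T cell list mean of BB108 was 8.44 at 2D2 and 7.90 at baseline, higher for all 17 genes, and 12 of 14 B and plasma cell genes were higher, with a mean difference of 0.82. Its stroma score was 8.91 at 2D2 and 8.93 at baseline, and its GAPDH control difference was 2.10 at 2D2 and 1.73 at baseline. The 9 genes high after DMPA were all higher at 2D2, by 1.95 on average.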
